A study of Mus musculus with 16 samples.

Results

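Plasmacytoid dendritic cells (pDC) of the liver-draining lymph nodes (LN) were picked from 3 CITE-seq libraries, in which the RNA molecules (UMIs) and 11 surface proteins, read through antibody tags, were counted in the same cells. Barcodes with fewer than 1000 UMIs of RNA, fewer than 500 genes or over 10% of UMIs from mitochondrial genes were not counted as cells. A cell was counted as a pDC at 2 or more UMIs of Siglech and 1 or more UMIs of Bst2, with no UMI of Cd3e, Cd79a or Fscn1, which mark T cells, B cells and mature dendritic cells. This gave 576 pDC among the 19543 cells of the 3 libraries, and the whole series held 53595 cells by the same filter. RNA chose these cells, so levels of Siglech, Bst2 and the genes that mark pDC describe the choice, whereas the antibody tags were not used by it.

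The study examined liver and LN in a mouse model of cholangitis, in which chow with the xenobiotic diethoxycarbonyl dihydrocollidine (DDC) injures the bile ducts and causes cholestasis. The 3 libraries used here came from young adult male C57BL/6J mice with no transgene named in the labels, at D0 (control), D5 and D19 of the diet. The day of the D5 library is 5 in its title and 6 in its description and in the methods. Hepatoduodenal and celiac LN had been pooled and digested with collagenase, and 5 sorted populations were mixed at equal ratios, namely live singlets, CD45+ CD11c-, CD45+ CD11c+, Pdpn+ and CD45- Pdpn- cells. Each time point was 1 library and the number of mice behind it was not stated, so no test between time points was possible and no p-value is given. Intervals are 95% intervals for counting error only and treat UMIs as independent.

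As background, pDC develop in the bone marrow under the transcription factor Tcf4, circulate in blood and enter LN through high endothelial venules. They sense viral nucleic acids through the endosomal receptors Tlr7 and Tlr9, which signal through Myd88 and Irf7, and are known for secreting large amounts of type I interferon. At rest they carry a secretory, plasma cell-like cytoplasm, present antigen less well than conventional dendritic cells, and in the mouse a part of them carries CD4 or CD8 on the surface.

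The libraries held 32013882 to 47653941 RNA UMIs. pDC had a median of 8395 UMIs and 2425 genes per cell at D0, 9779 UMIs and 2738 genes at D5, and 5484 UMIs and 1844 genes at D19. The D19 library was the shallowest in all 5 classes of cells that were compared (pDC and gated B cells, T cells, cDC1 and mature dendritic cells). The median mitochondrial share of pDC was 2.40%, 4.02% and 3.40% at D0, D5 and D19. Each pair of libraries shared 9 to 12 cell barcodes, none of them a pDC barcode.

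pDC made up 4.40% of the D0 library (288 of 6542 cells, Clopper-Pearson interval 3.92 to 4.93%), 2.03% of the D5 library (127 of 6248 cells, interval 1.70 to 2.41%) and 2.38% of the D19 library (161 of 6753 cells, interval 2.03 to 2.78%). The D0 interval lay above the other two, which overlapped. The mixing of sorted populations sets these shares, so they describe the libraries and not the LN. Of the gated dendritic cells alone (pDC, cDC1 and mature dendritic cells, 591, 527 and 890 cells), pDC were 48.7%, 24.1% and 18.1%. When each cell was thinned to 1000 UMIs before the rule was applied, the shares of all cells were 3.24%, 1.95% and 1.50%, so the order of D5 and D19 depended on depth.

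The cells carried the genes that are known to mark pDC. Cox6a2, a muscle-type cytochrome oxidase subunit that is a pDC marker in blood lineages, stood at 1489, 1345 and 1046 CPM (the UMIs of a gene summed over pDC and scaled to all their RNA UMIs) at D0, D5 and D19, against 34.4, 24.3 and 14.4 CPM in all other cells of the same libraries. It had a UMI in 88.5%, 85.8% and 80.7% of pDC. After thinning to 1000 UMIs it had one in 64.9%, 60.6% and 55.9% of pDC and in at most 0.2% of gated B or T cells. Genes that were also among the 20 most pDC-specific ones were Tcf4, the factor that sets pDC identity (1444, 1546 and 1749 CPM), Runx2 (454, 527 and 595 CPM), which is needed for pDC to leave the marrow, and Ccr9, a receptor for the gut chemokine Ccl25 (805, 1068 and 1193 CPM). The cathepsin Ctsl was at 1607, 1519 and 1390 CPM and the inhibitory collagen receptor Lair1 at 657, 675 and 716 CPM. Since RNA chose the cells, these values are a description and no finding.

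**Figure D1:**
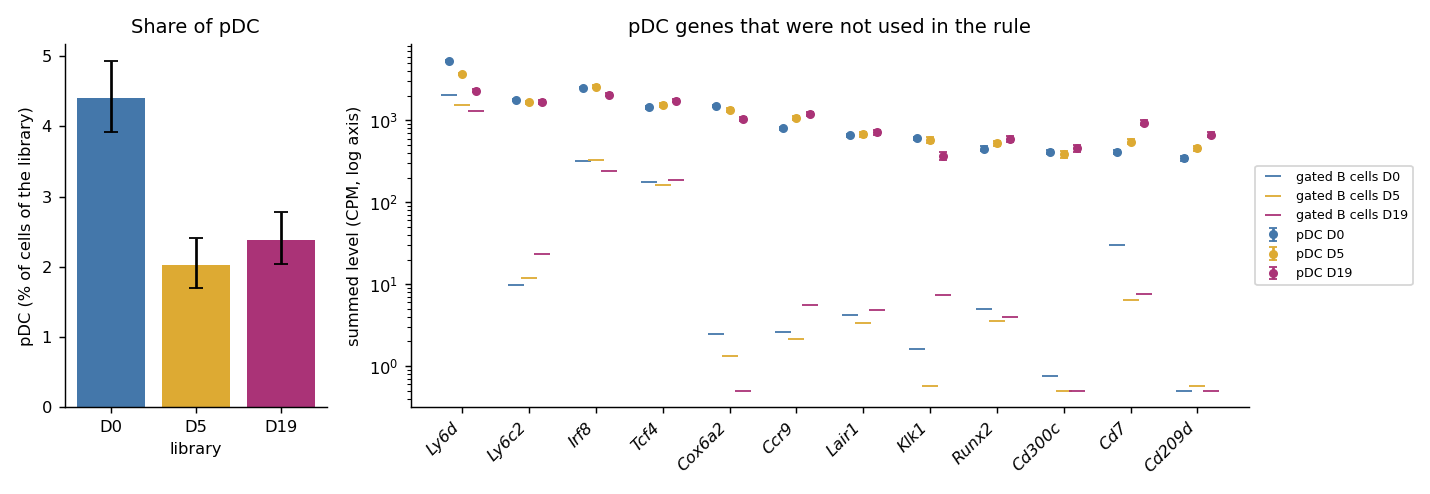
The left panel shows pDC as a percentage of the cells of each library, with bars from 0 and 95% Clopper-Pearson intervals. The right panel shows the summed level in CPM (log axis) of 12 genes in pDC (points with Poisson intervals) and in gated B cells (dashes, levels under 0.5 CPM drawn at 0.5) of the D0, D5 and D19 libraries. The D0 bar (4.40%) is the highest, and all 12 genes lie higher in pDC than in B cells in each library, for example Cox6a2 at 1046 to 1489 CPM.

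Markers of T cells, mature dendritic cells and cDC1 were low in the pDC beside the classes they mark. The T cell list without the gene of the rule (9 genes) summed to 69.9, 42.2 and 33.7 CPM in pDC against 3800 to 5116 CPM in gated T cells, and Cd3d was at 3.9, 4.7 and 8.7 CPM. The mature dendritic cell list (9 genes) summed to 308 to 456 CPM in pDC against 14033 to 17812 CPM in gated mature dendritic cells, with Ccl22 at 3, 1 and 0 UMIs. The cDC1 list summed to 188 to 209 CPM against 2602 to 3551 CPM in gated cDC1. The B cell list summed to 5357, 3737 and 2355 CPM, nearly all of it Ly6d, a gene of B cell and pDC progenitors, while the B cell surface gene Ms4a1 was at 3, 0 and 0 UMIs. The cDC2 and monocyte list of 13 genes was not low in pDC, where it summed to 635, 885 and 841 CPM, against 367 to 468 CPM in cDC1, 141 to 244 CPM in mature dendritic cells and 55.0 to 193 CPM in B and T cells. No class of cDC2 or monocytes was gated for comparison. In pDC the stromal and endothelial list summed to 151, 128 and 87.0 CPM, most of it Cdh5, with 8 of its 12 genes at 0 in each library. The plasma cell list, which holds genes of the secretory pathway that pDC also express, summed to 458, 535 and 406 CPM. The NK cell list summed to 19.8, 5.5 and 5.4 CPM and the neutrophil and erythroid list to 90.0, 221 and 80.4 CPM. The part of such RNA in the differences described here was not tested.

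Siglech had a median of 20, 25 and 10 UMIs per pDC at D0, D5 and D19 and ranged from 2 to 64. The cells nearest the threshold looked different from the bulk. Just outside, the 16, 5 and 5 cells with 1 Siglech UMI had Cox6a2 at 6.6, 0 and 45.8 CPM and Cst3, a gene of conventional dendritic cells and macrophages, at 7329, 3127 and 8602 CPM. Just inside, the 5, 2 and 4 cells with 2 UMIs had Cox6a2 at 396, 0 and 60.2 CPM, Cx3cr1 at 237, 268 and 211 CPM and Lgals3 at 850, 1265 and 1385 CPM. In between, the 9, 1 and 27 cells with 3 to 5 UMIs had Cx3cr1 at 201, 69.7 and 120 CPM and Lgals3 at 794, 1742 and 566 CPM. Cox6a2 was at 360, 0 and 965 CPM in them. It was present in 66.7% of these cells at D19, so most of the 27 carried the pDC marker. At 6 or more UMIs (274, 124 and 130 cells) Cox6a2 was present in 90.9%, 87.9% and 85.4% of cells, Cx3cr1 was at 10.3, 3.2 and 6.8 CPM and Lgals3 at 73.2, 73.4 and 44.8 CPM. Cells under 6 UMIs were thus 14 of 288 pDC at D0 (4.86%), 3 of 127 at D5 (2.36%) and 31 of 161 at D19 (19.3%), and the D19 cells were also the shallowest. They held 39.9%, 38.9% and 79.9% of the Lgals3 UMIs of the pDC. Cx3cr1 and Lgals3 are known in transitional dendritic cells, which share markers of pDC and of cDC2. The rule set aside 36, 17 and 18 cells for a Cd3e UMI, 57, 48 and 33 for a Cd79a UMI and 31, 31 and 21 for an Fscn1 UMI that met its other terms, and their median depths of 10109 to 14790 UMIs were above those of the pDC.

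Levels of pDC were then compared between libraries as differences of log2(CPM + 10), and a gene was called at 2-fold or more if it had 50 or more UMIs over both libraries and a UMI in at least 10% of the pDC of either library. At D5 against D0, 23 of 6354 genes were higher (0.362%) and 65 were lower (1.02%), 1.38% in either direction. At D19 against D0, 90 of 6003 genes were higher (1.50%) and 206 were lower (3.43%), 4.93% in either direction. At D19 against D5, 37 of 4794 genes were higher (0.772%) and 79 were lower (1.65%), 2.42% in either direction. The median difference over all genes was 0.04, -0.03 and -0.07 in these 3 comparisons. The pDC held 2576786, 1280057 and 919846 RNA UMIs in total at D0, D5 and D19. A gene high only at D0 therefore passed the filter of 50 UMIs at a lower CPM than a gene high only at D19. Counts of lower and higher genes are thus not on an equal footing, in the lists below as over all genes. Of the 206 genes lower at D19 than at D0, 44 were also lower by 2-fold in gated B cells, 32 in T cells, 45 in cDC1 and 60 in mature dendritic cells, and of the 90 higher ones 19, 21, 26 and 19 were. The share of all genes past 2-fold in those classes was not computed, so no excess of shared genes is read from these counts. The cDC1 values rest on 74 cells at D0 and 28 at D19.

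The largest falls from D0 to D5 were in heat shock and immediate early genes. Hspa1a, an inducible Hsp70 chaperone, was at 493, 18.0 and 1.1 CPM at D0, D5 and D19, a log2 difference of -4.17 at D5 and of -5.50 at D19, where 1 UMI was left (log2 interval of the plain ratio -14.13 to -6.34). Dnajb1, an Hsp40 co-chaperone, was at 364, 57.0 and 46.7 CPM, and Atf3, a stress-induced factor, at 162, 31.3 and 2.2 CPM. Hspa1b, the twin of Hspa1a, was at 432, 15.6 and 2.2 CPM, and Hsph1, an Hsp110 chaperone, at 72.6 and 12.5 CPM and then at 0 UMIs, where a limit of 3 counts stands for 3.26 CPM. Gem (94.7, 17.2 and 7.6 CPM) and Ier2 (309, 85.2 and 153 CPM) were also among the 10 largest falls at D5. Klf2, the Krüppel-like factor that holds lymphocytes in quiescence and controls their trafficking, fell from 2052 to 637 and 308 CPM. Klf6 fell from 729 to 198 and 132 CPM, and Klf4 from 417 to 116 and 112 CPM. Of the 17 genes of the immediate early and dissociation list that passed the filter, 15 were lower by 2-fold at D5 (median -1.27), beside 1.02% of all genes, and 14 at D19 (median -1.93), beside 3.43%. The same list had medians of -1.16, -0.97, -0.41 and -1.06 at D19 in gated B cells, T cells, cDC1 and mature dendritic cells. In those 4 classes Hspa1a had D19 differences of -4.54 to -5.96. Tissue digestion is known to induce these genes, and its part in the result was not tested.

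Within that list, some falls were deeper in pDC than in the other classes. Dusp1, a phosphatase that turns off MAP kinases, was at 450, 144 and 53.3 CPM in pDC, a D19 difference of -2.86 (interval of the plain ratio -3.52 to -2.67). The D19 difference of Dusp1 was -0.60 in B cells, -0.23 in T cells, 0.48 in cDC1 and -0.29 in mature dendritic cells. Egr1 fell from 102 to 37.5 and 19.6 CPM in pDC (D19 difference -1.92) and had differences of 0.22, 0.34, 1.35 and -0.09 in the same classes. Jun and Jund fell in pDC by 2.71 and 2.03 on the log2 scale at D19, and by 2.13 and 1.32 in B cells.

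The largest rises at D5 were led by Gm42418, which overlaps ribosomal RNA, at 6846, 27874 and 863 CPM at D0, D5 and D19. It moved by about as much in B cells (6973, 30607 and 1349 CPM) and T cells (6828, 29191 and 1311 CPM), and its level in free RNA (barcodes with 10 to 100 UMIs) was 28368, 74446 and 29613 CPM. AY036118, at the same locus, was at 457 CPM at D0 and 1232 CPM at D5. The nuclear or unannotated transcripts Gm42047, Gm26917 and Kcnq1ot1 (39.6, 97.7 and 21.7 CPM) and the gene Dido1 (21.3, 59.4 and 22.8 CPM) were past 2-fold at D5 as well. Hba-a1, a haemoglobin gene of red cells, was at 20.2, 67.2 and 19.6 CPM, and with free RNA subtracted its D5 difference was 0.00. Ogt, which attaches O-linked N-acetylglucosamine to nuclear and cytosolic proteins, rose from 64.4 to 183 CPM at D5, and Cep192, a centrosome scaffold, from 24.5 to 63.3 CPM. Apoe, a lipid carrier, rose from 50.1 to 120 CPM at D5 and 188 CPM at D19, and its D19 difference was 1.72 in pDC, 1.41 in T cells and 1.53 in mature dendritic cells, but -0.14 in B cells and 0.06 in cDC1. At a pseudocount of 50 CPM the D5 rises of Cep192 (0.61), Apoe (0.76), Gm42047, Gm26917, Kcnq1ot1, Dido1 and Hba-a1 fell short of 2-fold. Cep192 was at 0.90 in thinned pDC at D5. In pDC negative for the CD4 antibody tag, described below, Apoe was at 0.91 at D5 and 0.89 at D19.

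At D19 the largest rise above D0 was of Gm5914 (19.8, 25.0 and 161 CPM), which was also higher by 1.44 in B cells and 1.36 in T cells. The lysosomal ribonuclease genes Rnaset2a (62.9, 104 and 319 CPM) and Rnaset2b (81.1, 144 and 376 CPM) rose by 2.17 and 2.08 on the log2 scale. They are near-identical copies between which counting may split reads, and Rnaset2a was higher by 1.14 to 1.91 in the other classes too. Fkbp5, a glucocorticoid-induced co-chaperone, rose from 15.5 to 35.2 and 96.8 CPM. Its D19 difference was 2.06 in pDC, 1.30 in B cells, 1.44 in T cells, 2.73 in cDC1 and 0.85 in mature dendritic cells. Cirbp, a cold-inducible RNA-binding protein, rose from 147 to 498 CPM, by 1.69 in pDC and by 1.51 to 1.88 elsewhere. Ppp1r14a, an inhibitor of myosin phosphatase, was at 5.8, 7.0 and 58.7 CPM in pDC (2.12), and its differences were -0.83 in B cells, -0.10 in T cells, 2.38 in cDC1 and -0.42 in mature dendritic cells. Bloc1s1 (22.9, 43.0 and 127 CPM), Wfdc17 (30.7 CPM at D0 and 150.0 CPM at D19) and Snhg9 (20.6, 18.7 and 108 CPM) were also among the 10 largest rises. The free RNA of the D19 library held Snhg9 at 839 CPM, and the difference was 0.00 after its subtraction. The rise of Ppp1r14a rested on 54 UMIs in 19.9% of the D19 pDC, and at a pseudocount of 50 CPM its difference was 0.96.

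Genes of nucleic acid sensing were not past 2-fold. Of the 13 members that passed the filter at D19 against D0, 0 were higher and 0 were lower by 2-fold (median -0.40, against -0.03 over all genes and -0.11, -0.08, 0.03 and -0.17 for the list in B cells, T cells, cDC1 and mature dendritic cells), and 0 of 14 were at D5. With 4.93% of all genes past 2-fold at D19 and 1.38% at D5, these counts do not set the list apart. Tlr7, the endosomal receptor for single-stranded RNA, was at 112, 89.8 and 128 CPM, while Tlr9, the receptor for CpG DNA, had 15, 9 and 3 UMIs and was under the filter. Unc93b1, which carries these receptors to the endosome, was at 626, 533 and 412 CPM. Irf7, the factor that drives interferon transcription, was at 199, 114 and 104 CPM, differences of -0.75 and -0.87 that did not reach 2-fold. Of 20 type I and type III interferon genes in the table, 1 UMI of Ifnb1 was found in the D0 pDC and none in the others, and 0 cells with a UMI allow a share of pDC with a UMI, not of pDC that express such a gene, of up to 2.36% at D5 and 1.86% at D19.

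Genes that respond to interferon were mostly below their D0 level in pDC. Of the 18 measured members that passed the filter at D19, 3 were lower by 2-fold and none higher (median -0.70), beside 3.43% of all genes lower, and at D5 1 of 20 was lower (median -0.69), beside 1.02% of all genes. Isg15, a ubiquitin-like protein, fell from 73.7 to 34.4 and 23.9 CPM, with the 2-fold call at D19 only. Ifi44 fell from 36.9 to 11.7 and 6.5 CPM, and Usp18, which removes Isg15 and dampens the interferon receptor, from 39.6 to 17.2 and 10.9 CPM. Ifi27l2a (725, 389 and 367 CPM) was lower by less than 2-fold. In gated B cells the list had medians of -0.48 at D5 and -0.72 at D19, and in T cells -0.29 and -0.09. Ifi44 had differences of -0.15 and -0.04 in B and T cells at D19, beside -1.50 in pDC.

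Of 20 cytokine and chemokine genes 6 passed the filter at D19 against D0. Il12a was the 1 higher by 2-fold, and Tnf and Ccl3 were the 2 lower (median -0.42), beside 1.50% of all genes higher and 3.43% lower. At D5 2 of 6 were lower (Tnf and Ccl4), beside 1.02% of all genes. Il12a, the p35 subunit of IL-12, was at 24.8, 21.1 and 69.6 CPM and rose at D19 (64, 27 and 64 UMIs, interval of the log2 ratio to D0 0.96 to 2.01). It had a UMI in 14.2%, 12.6% and 24.8% of pDC, and after thinning in 1.7%, 1.6% and 5.6%, near the 1.8%, 3.0% and 5.2% of gated B cells, so no change in the share of cells is read from it. Gated B cells had Il12a at 19.2, 28 and 48.5 CPM. Il12b, the other IL-12 subunit, had 0 UMIs in pDC of every library. Tnf fell from 56 UMIs (21.7 CPM) at D0 to 4 and 1 UMIs (log2 interval of the plain ratio at D19 -9.65 to -1.78). Ccl4, a chemokine that attracts lymphocytes and myeloid cells and 1 of the 20 most pDC-specific genes, was at 3891, 1526 and 2399 CPM, a fall by 1.34 on the log2 scale at D5 and a difference of -0.70 at D19. Ccl3 fell from 246 to 108 CPM at D19. The D19 difference of Ccl4 was -2.15 in T cells and -2.49 in mature dendritic cells.

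Activation genes were lower at D19. Of the 16 members of the activation and costimulation list, 9 passed the filter, which genes high at D0 pass more easily. All 9 were below D0, 6 of them by 2-fold (median -1.33), beside 3.43% of all genes. The medians of the list were -0.30 in B cells, -0.22 in T cells, -0.93 in cDC1 and -0.59 in mature dendritic cells. Cd69, an early activation antigen that retains lymphocytes in tissue, was at 562, 252 and 109 CPM, a fall by 1.12 at D5 and 2.27 at D19 on the log2 scale. After thinning, Cd69 had a UMI in 35.1%, 20.5% and 7.5% of pDC and in 34.0%, 33.0% and 27.5% of B cells. The NF-κB targets and inhibitors Nfkbia (538, 287 and 167 CPM) and Tnfaip3 (127, 70.3 and 31.5 CPM) fell, as did the cytokine signalling inhibitors Socs1 (31.4, 7.0 and 2.2 CPM, with 2 UMIs at D19 and an interval of the plain ratio of -6.92 to -1.95) and Socs3 (89.3, 57.8 and 29.3 CPM). Tnfaip3 had a difference of 0.04 and Socs1 of 0.33 in B cells, where the list had 1 lower gene. Several of these genes are also known to respond to tissue digestion, whose part was not tested.

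Part of the genes of antigen presentation by MHC class II fell at D19, among them the class II chains and Cd74. At D5 0 of 13 members were past 2-fold (median -0.43), beside 1.38% of all genes, and at D19 6 of 13 were lower and none higher (median -0.86, with 3 members above D0 in any amount), beside 3.43% of all genes lower. The class II chain genes were at 4498, 3169 and 1680 CPM for H2-Aa, 3348, 2481 and 1115 CPM for H2-Ab1 and 2179, 1573 and 838 CPM for H2-Eb1. Cd74, the invariant chain that guides class II molecules to the endosome, was at 12006, 8018 and 3993 CPM, a fall by 1.59 on the log2 scale (interval of the plain ratio -1.64 to -1.54). H2-DMb2, of the H2-DM complex that edits the bound peptides, fell by 1.88, and H2-Oa, of the H2-O complex that inhibits H2-DM, by 1.03. Ciita, the transactivator of this gene group, was at 61.3, 68.0 and 29.3 CPM (-0.86), and the protease Ctss (0.03) and its inhibitor Cst3 (0.12) stayed near D0. The list's D19 median was -0.97 in mature dendritic cells, in which 6 genes were lower by 2-fold as well, and -0.40, -0.12 and -0.01 in B cells, T cells and cDC1, in which 0 were.

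Class I genes were among the 10 largest falls of pDC at D19. H2-Q7, a nonclassical class I gene of the Qa-2 family, was at 855, 648 and 88.1 CPM, which was 8.82-fold lower on the scale with 10 CPM added at D19 than at D0 (log2 -3.14, interval of the plain ratio -3.62 to -2.96). It had a UMI in 93.8%, 85.8% and 25.5% of pDC, and after thinning to 1000 UMIs in 54.5%, 47.2% and 9.9%, against 20.2%, 14.0% and 6.9% of B cells and 37.1%, 34.3% and 22.2% of T cells. H2-Q6, a near-identical neighbour, was at 181, 75.0 and 9.8 CPM. Counting may have split reads between the copies, and their sum was 1035, 723 and 97.8 CPM. The D19 difference of H2-Q7 was -1.23 in B cells, -0.80 in T cells, -1.05 in cDC1 and -0.71 in mature dendritic cells. The classical genes H2-K1 (2170, 1687 and 694 CPM) and H2-D1 (2621, 2062 and 1096 CPM) fell by 1.63 and 1.25 on the log2 scale in pDC and had differences of -0.97 and -1.03 in B cells. B2m, their common light chain, was at 2705, 2587 and 1719 CPM, and H2-T23, the Qa-1 gene, at 687, 739 and 645 CPM, neither past 2-fold. Of the 12 class I members, 0 were past 2-fold at D5 (median -0.25), beside 1.38% of all genes. At D19 5 were lower (median -0.73), beside 3.43% of all genes. The list's D19 medians were -0.57, -0.42, -0.61 and -0.19 in B cells, T cells, cDC1 and mature dendritic cells.

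**Figure D2:**
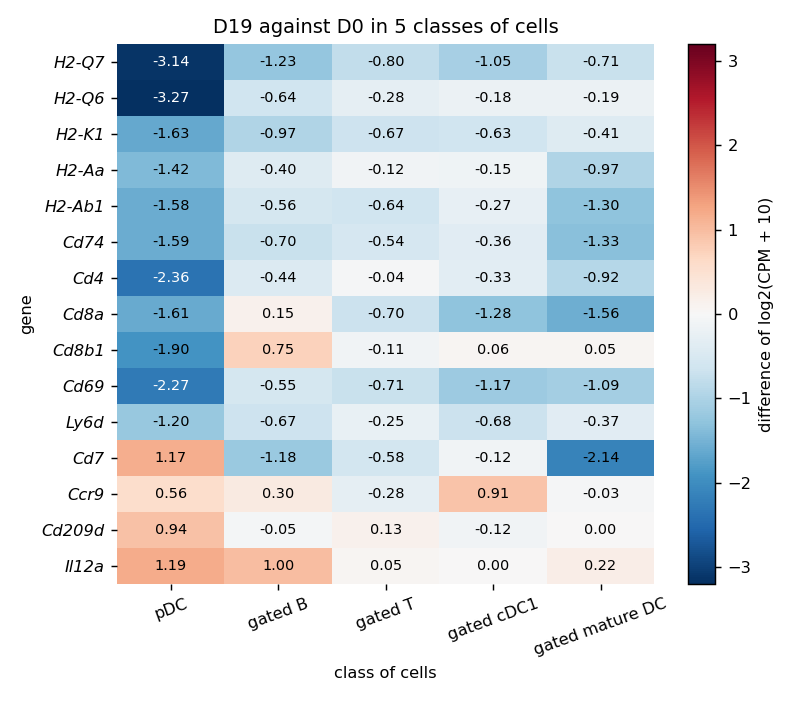
Each cell of the heat map is the D19 minus D0 difference of log2(CPM + 10) for 1 of 15 genes (rows) in pDC and in gated B cells, T cells, cDC1 and mature dendritic cells (columns), printed in the cell and coloured blue for lower and red for higher at D19. In the pDC column H2-Q7 is at -3.14, Cd4 at -2.36 and Cd7 at 1.17, and the B cell column has -1.23, -0.44 and -1.18 for the same genes.

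Since both MHC lists had genes lower by 2-fold at D19, the promoter of 1 such gene of each list is shown. They cover 250 bases before to 50 after the annotated start, as given by RefSeq for the GRCm38.p6 build. Capitals mark the 8 letters CTGATTGG or their reverse complement. These are letters of an inverted CCAAT element, known from the Y box of MHC promoters, which binds the NF-Y complex. The letters alone do not make a stretch a Y box.
H2-Aa, chr17:34287774-34288073, minus strand: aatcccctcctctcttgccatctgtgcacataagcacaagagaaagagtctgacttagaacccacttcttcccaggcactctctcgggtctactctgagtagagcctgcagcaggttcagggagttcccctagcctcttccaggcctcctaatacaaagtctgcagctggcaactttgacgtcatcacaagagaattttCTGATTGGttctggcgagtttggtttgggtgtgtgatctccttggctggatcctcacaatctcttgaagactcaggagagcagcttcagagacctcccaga
H2-Q7, chr17:35438905-35439204, plus strand: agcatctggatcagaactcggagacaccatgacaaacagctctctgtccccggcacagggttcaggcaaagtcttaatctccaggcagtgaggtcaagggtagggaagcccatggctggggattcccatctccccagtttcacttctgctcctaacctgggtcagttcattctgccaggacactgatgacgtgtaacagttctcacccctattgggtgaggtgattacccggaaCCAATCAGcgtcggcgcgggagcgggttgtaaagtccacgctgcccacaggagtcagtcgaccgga
In H2-Aa the letters begin 51 bases before the start, on the same strand, and in H2-Q7 they begin 16 bases before it, on the opposite strand. The H2-Q7 match thus differs in orientation and position, and it is not called a Y box here. Over both strands they occurred in 1346 of 32851 windows of this length in the table (4.10%). Of the 26 genes of both MHC lists, 20 had a window, 8 of which belonged to genes that were lower by 2-fold at D19. Of those 8 genes, 6 held the letters (H2-Aa, H2-Eb1, H2-Oa, H2-K1, H2-D1 and H2-Q7) and H2-DMb2 and H2-T22 did not, and of the 12 other genes 3 held them (H2-T23, Tap1 and Psmb9). A match was counted on either strand and at any place in the window. It describes the sequence and neither a Y box nor a bound site.

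Among the genes of homing and adhesion, Klf2 fell in every class compared, by 1.05 to 1.60 on the log2 scale in the other 4 classes and by 2.70 in pDC at D19. Ccr9 (0.56 at D19) and Ccr2, the receptor for monocyte chemoattractants (149, 191 and 305 CPM, 0.98), were higher at D19 by less than 2-fold. The list had a median of -0.31 over the 16 members that passed the filter at D19, and Klf2 was its 1 member lower by 2-fold.

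In the list of inhibitory receptors, which also holds a ligand and adaptors, 2 genes were past 2-fold at D19 against D0. Both were higher, among the 12 members that passed the filter (median 0.13), beside 1.50% of all genes higher and 3.43% lower. At D19 against D5, 1 of 12 was higher (Cd200) and 1 was lower (Klra17), beside 0.772% and 1.65% of all genes. Cd200, a ligand that quiets myeloid cells, was at 70.2, 93.0 and 221 CPM (1.52 at D19), and was also higher in B cells (1.45), T cells (1.65) and cDC1 (1.78). Btla, an inhibitory receptor for Tnfrsf14, was at 17.9, 32.0 and 65.2 CPM (1.43), with 0.50 and 0.28 in B and T cells. Tyrobp, the adaptor through which Siglech signals, was at 4637, 4188 and 4400 CPM, and Cd300c at 416, 385 and 460 CPM. Cd209d, a lectin receptor, was at 346, 455 and 672 CPM, a D19 difference of 0.94 that fell short of 2-fold, while B cells had -0.05.

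Identity genes are described for the cells that the rule gated. Of 18 genes, 0 were past 2-fold at D5 (median 0.06), and at D19 1 was higher and 1 was lower (median -0.32 against -0.03 over all genes, with 13 of 18 below D0), beside 4.93% of all genes past 2-fold. The lower one, Ly6d, was at 5301, 3672 and 2295 CPM. The higher one, Cd7, an immunoglobulin superfamily receptor of early lymphoid cells, was at 412, 550 and 940 CPM, and after thinning had a UMI in 30.6%, 41.7% and 57.1% of pDC and at most 1.0% of B cells. Of 14 transcription factors, 2 were lower at D19 (median -0.12), beside 3.43% of all genes. These were Klf4, which was also lower in B cells (-1.02) and mature dendritic cells (-1.06), and Id3, an inhibitor of E proteins such as Tcf4 (56.3, 30.5 and 20.7 CPM). Irf8 was at 2521, 2593 and 2059 CPM and Spib at 168, 146 and 101 CPM, neither past 2-fold. Id2 and Zbtb46, which mark conventional dendritic cells, stayed at 16.4 to 28.3 and 3.9 to 4.4 CPM.

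The secretory machinery was lower in part. Of 17 genes of the endoplasmic reticulum, 4 were lower by 2-fold at D19 (median -0.56), beside 3.43% of all genes, namely the chaperones Hspa5 (885, 613 and 386 CPM), Calr and Pdia4 and the stress factor Ddit3. The medians were -0.49, -0.53 and -1.04 in B cells, T cells and cDC1, so these cells had lower values as well. Xbp1, the factor that builds the secretory apparatus, was at 250, 284 and 244 CPM. None of the 18 oxidative phosphorylation genes was past 2-fold in any of the 3 comparisons, with medians between -0.07 and 0.24, beside 1.38% to 4.93% of all genes past it. Of 20 cell cycle genes 5 passed the filter at D19 against D0 and 0 were past 2-fold (median -0.46), and Mki67 had 6, 4 and 2 UMIs.

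**Figure D3:**
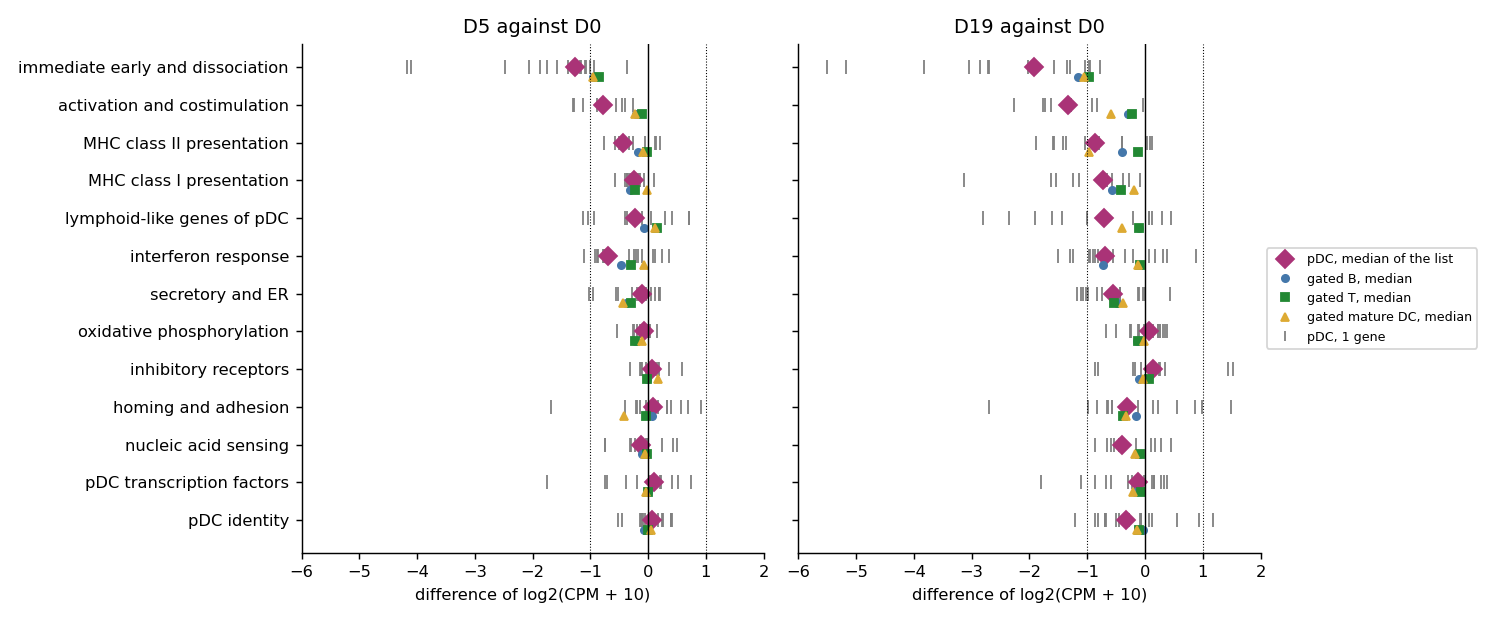
Median difference of log2(CPM + 10) for 13 gene lists (rows) at D5 against D0 (left) and D19 against D0 (right), with diamonds for pDC, ticks for the single genes of the list in pDC, and circles, squares and triangles for gated B cells, T cells and mature dendritic cells. Dotted lines mark 2-fold. The immediate early list is the lowest in both panels (-1.27 and -1.93 in pDC), the activation list is at -1.33 at D19, the identity list at -0.32 and oxidative phosphorylation at 0.07.

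pDC are known to carry lymphoid genes, and part of these were lower at D19. Of the 13 measured members that passed the filter, 5 were lower by 2-fold at D19 and none higher (median -0.70, with 5 above D0 in any amount), beside 3.43% of all genes lower. These were Iglc3, Igkc, Cd8b1, Cd4 and Cd8a. At D5 2 were lower, Iglc2 and Igkc (median -0.23), beside 1.02%. Both counts include Igkc, from which no change is read, as said below. The coreceptor genes were at 181, 134 and 27.2 CPM for Cd4, 209, 177 and 62.0 CPM for Cd8a and 812, 417 and 210 CPM for Cd8b1, with D19 differences of -2.36, -1.61 and -1.90. In T cells, whose lineages they define, the differences were -0.04, -0.70 and -0.11. Iglc3, an immunoglobulin light chain gene, fell from 1314 to 476 CPM, whereas Dntt, the terminal transferase, was at 139, 232 and 146 CPM. Igkc fell from 735 to 352 and 96.8 CPM in pDC, but it was abundant in free RNA (5968, 2357 and 3762 CPM). With the free RNA profile subtracted its D19 difference was 0.00, so no change of Igkc in pDC is read from these values.

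The antibody tags measured the CD4 and CD8a proteins on the same cells, independently of the rule. The tags are short DNA barcodes on the antibodies, shown in capitals as they were read in all 3 libraries, because the surface result rests on their counts.
CD4 antibody tag: AACAAGACCCTTGAG
CD8a antibody tag: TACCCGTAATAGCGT
The median count of the CD4 tag per pDC was 314, 529 and 17 UMIs at D0, D5 and D19, against 12, 10 and 3 in gated B cells, which lack the protein. The median of the CD8a tag was 237.5, 279 and 41 UMIs in pDC and 16, 12 and 5 in B cells. D19 was the lowest library for both tags, and the 9 other tags, among them CD3, CD11b, XCR1, CX3CR1 and CD301b, were above B cells in at most 1.57% of pDC.

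Tag counts depend on staining and sequencing of a library, so they were set against T cells of the same library. In T cells with Cd4 RNA and no Cd8 RNA the CD4 tag had medians of 688, 1198 and 448 UMIs, so that the pDC median was 45.6%, 44.2% and 3.8% of it. In T cells with Cd8a and Cd8b1 RNA and no Cd4 RNA the CD8a tag had medians of 1627, 2229 and 1108 UMIs, and pDC reached 14.6%, 12.5% and 3.7%. From D0 to D19 the median fell further in pDC than in the T cells of the same libraries for both tags.

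On the centred log ratio scale, a positive pDC was one above the 99th percentile of B cells of its library. For CD4 this held for 62.5% of pDC at D0 (interval 56.6 to 68.1%), 66.1% at D5 (57.2 to 74.3%) and 17.4% at D19 (11.9 to 24.1%). The D19 interval did not overlap the others. For CD8a the shares were 55.2% (49.3 to 61.1%), 60.6% (51.6 to 69.2%) and 32.3% (25.2 to 40.1%). The CD8a shares depended on the setting, being 71.9%, 74.0% and 72.0% at the 95th percentile of B cells and 25.0%, 21.3% and 24.2% when tags were scaled to 1000 tag UMIs per cell, so their order is not settled. The CD4 share was the lowest at D19 under those settings too, with 75.3%, 75.6% and 43.5% at the 95th percentile and 34.0%, 39.4% and 13.0% per 1000 tag UMIs, and it was 28.9% at D19 when the cells with the highest doublet scores were left out.

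**Figure D4:**
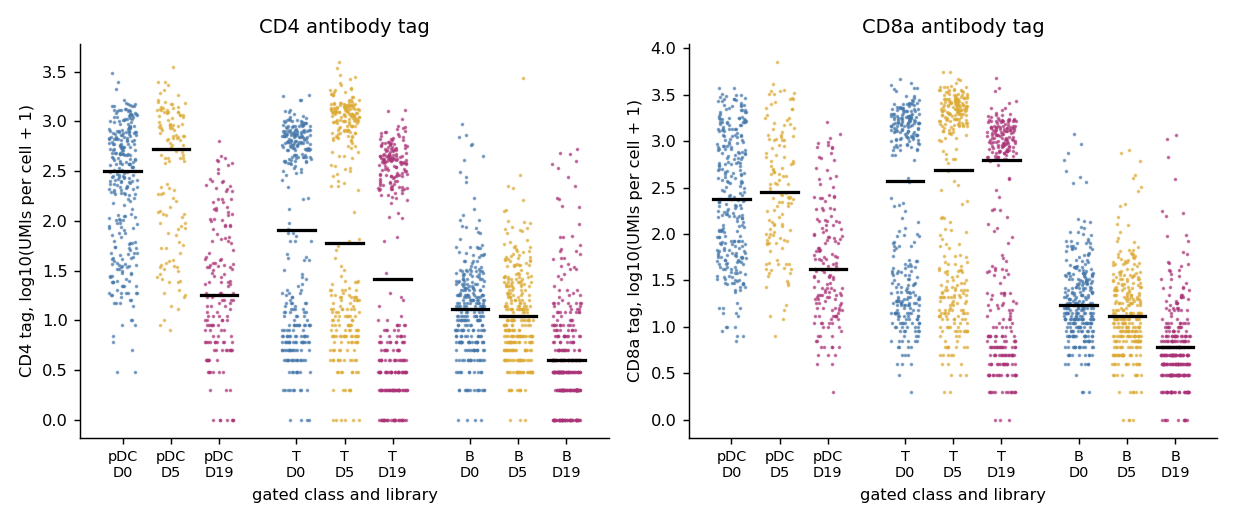
Tag count per cell as log10(UMIs + 1) for the CD4 antibody (left) and the CD8a antibody (right) in pDC, gated T cells and gated B cells of the D0, D5 and D19 libraries. Each point is a cell, with at most 300 drawn per group, and the black line is the median of all cells of the group. At D0 and D5 the pDC spread from the range of the B cells up to the upper cloud of T cells, and the D19 pDC have a lower CD4 median (17 UMIs, against 3 in B cells).

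Both proteins together were found on 33.7% of pDC at D0, 43.3% at D5 and 5.0% at D19, and neither on 16.0%, 16.5% and 55.3%. At the 95th percentile of B cells these shares were 54.9%, 57.5% and 34.8% for both proteins and 7.6%, 7.9% and 19.3% for neither, so their size depends on the setting. The tag and the RNA of the same gene moved together from cell to cell, with Spearman's rho of 0.68, 0.60 and 0.36 for CD4 and Cd4 and 0.72, 0.72 and 0.52 for CD8a and Cd8a over 288, 127 and 161 pDC. These cells share a library and its depth, and rho between either tag and the RNA UMIs of the cell was 0.02 to 0.19. CD4 tag and Cd8a RNA had rho of 0.12, 0.01 and 0.09. After thinning, Cd4 had a UMI in 14.6%, 7.9% and 2.5% of pDC and in at most 0.2% of B cells.

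The CD4 tag also divided pDC by genes that the rule did not use. Among the 2241 genes with 50 or more pDC UMIs in each library, those highest in CD4-positive over CD4-negative pDC in all 3 libraries, by the smallest of the 3 differences, were led by Klk1, a tissue kallikrein, with 792 against 304 CPM at D0, 755 against 235 at D5 and 960 against 242 at D19. Its relative Klk1b27, Iglc3, H2-Q7 and Rpgrip1 followed, with H2-Q7 at 1022 against 591, 784 against 387 and 196 against 64.8 CPM. The genes lowest in CD4-positive cells were led by Lgals3, the gene of galectin-3, with 29.2 against 250, 39.2 against 264 and 30.6 against 210 CPM. Plbd1, Vim, Ms4a6c and Crip1 followed. The cells under 6 Siglech UMIs were nearly all CD4-negative (13 of 14, 3 of 3 and 30 of 31) and carried part of these differences. Among pDC with 6 or more Siglech UMIs, Lgals3 was at 24.9 against 160 CPM at D0, 39.2 against 145 at D5 and 31.2 against 48.6 at D19, so that at D19 little of the gap was left. Plbd1 was at 25.0 against 26.0 CPM at D19 in those cells and Crip1 at 618 against 835, whereas Klk1 was at 961 against 240. Cd4 itself was under the filter of 50 UMIs in each library, with 25 UMIs at D19 and differences of 2.03, 2.16 and 2.30 between the classes, and so was Cx3cr1, with differences of -2.40, -1.90 and -1.59. Among pDC with 6 or more Siglech UMIs the Cx3cr1 differences were -1.82, -1.00 and -0.06, so at D19 no gap was left (6.2 against 6.9 CPM). The 10 genes were chosen for their differences, which are a description with no test. Cox6a2 was 1549 against 1396, 1563 against 929 and 1094 against 1035 CPM, so both classes carried the pDC marker. The CD8a tag gave a partly similar split, with Lgals3, Vim and Crip1 again among the 5 lowest genes. Cd8a, the gene of the tagged protein, Igkc and Iglc2 were among the 5 highest. Igkc was abundant in free RNA, and Iglc2 had 7 UMIs in the CD8a-negative cells at D5. The CD8a split was not repeated at 6 or more Siglech UMIs.

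**Figure D5:**
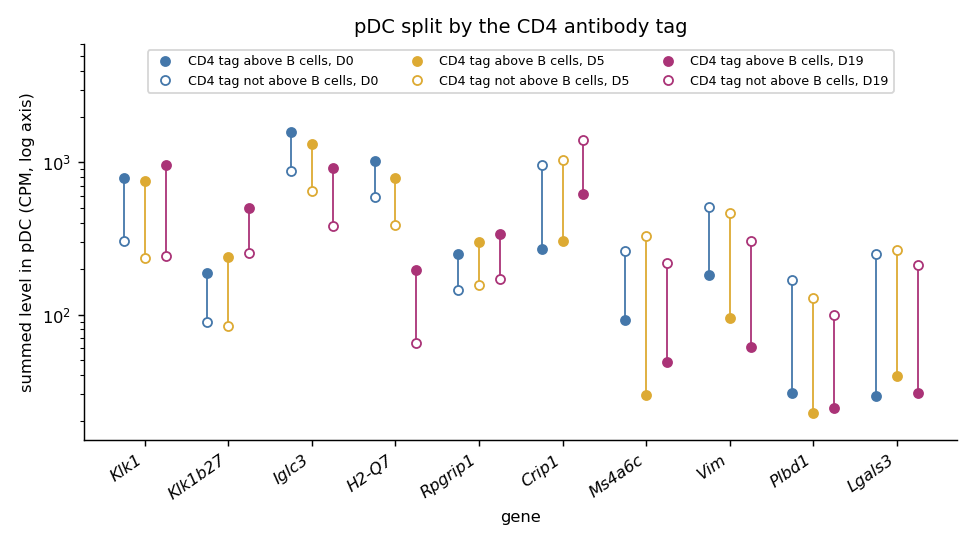
Summed level in CPM (log axis) of 10 genes in pDC whose CD4 tag was above the 99th percentile of B cells (filled) or not (open), in the D0, D5 and D19 libraries, with a line joining both values of a library. The filled points of Klk1 (755 to 960 CPM) lie above the open ones (235 to 304 CPM), and for Lgals3 the filled points (29.2 to 39.2 CPM) lie below the open ones (210 to 264 CPM).

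Since fewer pDC were CD4-positive at D19, the changes were computed within each class. Of the 206 genes that were lower at D19 than at D0 over all pDC, 160 were lower by 2-fold within the 133 CD4-negative cells of D19 against the 108 of D0, and 134 within the 28 CD4-positive cells against 180. Of the 90 higher genes, 69 were past 2-fold in each class. These genes had been chosen for their difference over the same cells, and most D19 pDC were CD4-negative. Agreement was thus largely fixed in advance, and the counts are no check on the changed CD4 share. Over all genes, 275 of the 4016 that passed the filter within CD4-negative pDC were past 2-fold. Of these, 179 were among the 296 called over all pDC. No such share was computed for CD4-positive pDC. H2-Q7 had differences of -3.01 in CD4-negative and -2.33 in CD4-positive pDC, and Cd8b1 of -1.70 and -1.22. The class II genes H2-Aa (-1.43 and -0.72) and H2-Ab1 (-1.64 and -0.81) were past 2-fold in the CD4-negative cells and not in the CD4-positive ones, while Cd74 was past it in both (-1.56 and -1.04). Il12a was higher by 1.23 in the CD4-negative and by 0.07 in the CD4-positive cells, and Cd7 by 0.96 and 0.95, short of 2-fold in each. The CD4-positive value of Il12a rested on 36 UMIs at D0 and 4 at D19, so no difference between the classes is read from it. The RNA of Cd4 itself was lower by 1.59 and 1.33 on the log2 scale in these classes. Crip1, a gene of the transitional dendritic cell list that was higher by 1.21 over all pDC at D19 (540, 556 and 1259 CPM), was higher by 0.53 in the CD4-negative and by 1.16 in the CD4-positive cells. Crip1 was the 1 member of that list higher by 2-fold and Cd8a the 1 member lower among 11 at D19, beside 1.50% of all genes higher and 3.43% lower, and the list had a median of -0.09.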

How the data were processed

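Single-cell RNA and antibody tags were measured in 3 LN libraries (D0, D5, D19). The authors mapped reads with Cell Ranger to mm10, per the submitters' processing notes. The headers of the matrices name Cell Ranger 4, whereas the study's software list gives a later version, and this difference was not resolved. The deposited matrices hold raw UMI counts per barcode, unfiltered. Sorting into groups followed the sample labels. UMIs were summed over pDC and scaled to CPM over all RNA UMIs. The pseudocount was 10 CPM, and genes of the rule were left out of the gene comparison. Gated B cells had Cd79a at 2 or more UMIs, and the other classes analogous marker gates. Clopper-Pearson, Poisson and exact conditional intervals used scipy 1.17.1 under Python 3.11.15. The script was tested on simulated data.

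Members and the 25 gene lists were chosen with earlier results of these data known. Named genes were the 10 largest rises and falls of D5 and of D19 against D0 and the 5 of D19 against D5, without mitochondrial and ribosomal genes, the 20 genes highest in pDC, list members by role, and the 5 genes each way that split the tag classes. Scrublet in scanpy 1.11.5 called 3, 5 and 0 cells at its own threshold and so did not work as a caller. Doublets were kept, and the 342, 312 and 365 highest-scoring cells (9, 3 and 2 of them pDC) were left out as an alternative. Other alternatives were depth, mitochondrial and Siglech thresholds, pseudocount, filter, scaling, thinning, free RNA subtraction and tag scaling. RNA depth was 45317389, 47653941 and 32013882 UMIs. Values of some list members are not reported here.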

Additional observations from a re-analysis of the deposited data

Results flagged for a closer look

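Cd7 differed between the classes of cells. Its level rose in pDC from D0 to D19 (412 to 940 CPM, a log2 difference of 1.17), whereas its difference was below 0 in the 4 other gated classes, -1.18 in B cells, -0.58 in T cells, -0.12 in cDC1 and -2.14 in mature dendritic cells. Each value compares 1 library with 1 library, and the difference between classes was not tested. Within CD4-positive and CD4-negative pDC the difference of Cd7 was 0.95 and 0.96, short of 2-fold in each.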

How the results depend on the processing

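None of the 50 ranked rises and falls turned its direction. The other named genes were not followed singly through the alternative settings. The order of the D5 and D19 shares of pDC turned after thinning and over gated dendritic cells, as did the order of the CD8a tag shares, and 32 of 994 list medians changed sign, all from values of at most 0.57 in size. The cDC1 list went from -0.21 to 0.33 (D5 against D0) and from 0.15 to -0.58 (D19 against D5) in thinned pDC, and the B cell list from -0.45 to 0.54 (D19 against D5) with free RNA subtracted. Of the genes past 2-fold, 88 of 88, 293 of 296 and 114 of 116 kept their sign in thinned pDC and 85, 289 and 107 with free RNA subtracted. These genes, like the 50 ranked ones, had been chosen for their differences in the same cells. Agreement in sign was thus largely fixed in advance. Still called were 30, 79 and 21 of them in thinned pDC, where fewer genes passed the filter, and 84, 263 and 80 with free RNA subtracted. Thinning each cell before the rule gave pDC shares of 3.24% at D0 and 1.50% at D19, and gated dendritic cells as denominator gave 48.7%, 24.1% and 18.1%; 16 of 21 alternative shares stayed within the interval. The counts of genes past 2-fold (88, 296 and 116 for D5 against D0, D19 against D0 and D19 against D5) became 227, 613 and 242 at a pseudocount of 1 CPM and 30, 87 and 27 at 50 CPM. For D19 against D5 a filter of 100 UMIs gave 69 of 2861 genes and no filter 197 of 13078, beside 116 of 4794 in the main setting. With pDC thinned to 1000 UMIs the counts were 118 of 1169 genes for D19 against D0 and 37 of 740 for D19 against D5. The main setting had 296 of 6003 and 116 of 4794, so the smaller counts are not smaller shares. With free RNA subtracted D5 against D0 gave 182 of 5608 genes and D19 against D5 193 of 4169. In all, 30 of 42 counts stayed within 1.5 times. Tag shares at the 95th percentile of B cells were 75.3%, 75.6% and 43.5% for CD4 and 71.9%, 74.0% and 72.0% for CD8a. Per 1000 tag UMIs they were 34.0% and 39.4% for CD4 at D0 and D5, and 25.0%, 21.3% and 24.2% for CD8a, and without the highest doublet scores D19 had 28.9% for CD4 and 42.1% for CD8a. The causes were not tested. Of 700 values of the 50 ranked rises and falls 681 kept the call, 19 lost it and 0 reversed. Restricting to Siglech at 6 or more UMIs gave 90, 321 and 125 of 6227, 5730 and 4521 genes, of which 84, 254 and 92 were shared. Restricting to CD4-negative pDC gave 111, 275 and 106 of 3536, 4016 and 3028 genes, of which 53, 179 and 50 were shared. These restrictions were chosen after seeing the data. So were the CD4 tag split at 6 or more Siglech UMIs, both tags together at the 95th percentile, and the T cell reference of the tags. No paired analysis was possible because each time point had 1 library. With 127 to 288 pDC per library, genes with few UMIs carry wide intervals, and differences between mice cannot be told apart from differences between libraries.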
